A study of Drosophila melanogaster with 6 samples.

Results

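The DNA damage response and repair genes of Drosophila melanogaster were followed in developmental endocycling tissue and in mitotic cycling tissue. A list of 39 gene symbols, chosen by known function but with earlier results of these data known, covers checkpoint signaling, end resection, homologous recombination, end joining, excision repair, crosslink repair, mismatch repair, lesion bypass and poly-ADP-ribosylation. Of these, 37 were found among the 17493 genes of the count table and 36 had enough reads to be tested. The symbols tim-1 and mus210 were not matched, and RefSeq gives mus210 as a synonym of Xpc, which is described with the related genes. The remaining gene, mus312, had no reads in any library.

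Larvae of the strain y1 w67c23 came from a 6 h egg collection at 25 °C and were dissected 4 days after egg lay, while still feeding in their last instar. Salivary glands (SG) were taken as endocycling tissue and brains plus imaginal discs (B-D) as mitotic cycling tissue, with 3 libraries of each. Both tissues came from the same larvae, the labels name no transgene or treatment, and the comparison asks how transcript levels differ between the 2 tissues. Kind of cell cycle and tissue change together in this design, so their parts cannot be told apart. B-D is a mixture of neurons, neuroblasts, glia and disc epithelium, and SG is a whole gland as dissected. The study calls the libraries biological replicates, no source says how the larvae were divided among them, and p-values measure the spread between these samples.

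A cell that finds damaged or stalled DNA activates the kinases ATM and ATR, which act through Chk2 and Chk1 to hold the cell cycle, promote repair or trigger apoptosis. Double-strand breaks are resected and copied from a sister molecule by homologous recombination, or their ends are rejoined by Ku and DNA ligase. In an endocycle, S phases alternate with gaps and no mitosis occurs, and in the fly salivary gland parts of the genome are incompletely replicated while p53-dependent apoptosis is known to be silenced.

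The libraries held between 45023997 and 56583711 counts. Levels below are counts scaled to the library total (CPM) and then by TMM, a method that sets the typical gene equal between libraries, and values are given in the order of replicates 1, 2 and 3. A level of 3 counts in a library corresponds to 0.0364 to 0.0452 CPM in B-D and to 0.0809 to 0.0968 CPM in SG. Of 16 salivary gland markers, 11 were higher in SG and their summed level was 20780 to 75990 CPM there against 319 to 880 CPM in B-D, where Sgs5 and Sgs8 were at 0 in replicate 1. All 13 neuron markers and all 8 neuroblast markers were lower in SG, with summed levels of 146 to 384 CPM and 33.4 to 107 CPM against 3220 to 3924 CPM and 874 to 1117 CPM. Of the 13 imaginal disc markers 12 were lower and eyg was higher. Transcripts of fat body were also present in the SG libraries, with 9 of 9 markers higher and a summed level of 192300 to 286100 CPM, and of 9 hemocyte markers 7 were lower and srp was higher. The SG values therefore describe RNA that includes fat body transcripts, whose part in the results was not tested. In these bulk samples, fewer cells of a type and less RNA per cell cannot be told apart.

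No repair or damage response gene was called higher in SG and 19 of 36 were called lower (edgeR quasi-likelihood test, Benjamini-Hochberg adjusted p of at most 0.05 over all genes, log2 fold change of 0.5 or more in size). Over all 11369 genes tested 35.3% were called lower and 34.5% higher, or 69.8% in either direction. Large falls were those of FANCI and Fancl of the crosslink repair pathway, Msh6 of mismatch repair and spn-D of meiotic recombination, all lower by more than 2 on the log2 scale. Genes for Ku, DNA ligase IV, the ATR partner mus304, Claspin and the TFIIH helicases were not called. The median log2 fold change of the 36 genes was -0.62, and that of all genes tested was -0.03.

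Scaling decides where 0 lies. When library size alone set the scale, every one of the 36 genes was called lower, against 62.5% of all genes called lower, and the median over all genes shifted by -1.10 on the log2 scale. Relative to the median of all genes, the median of the 36 genes was -0.58 with TMM and -0.59 with library size, and 29 of the 36 lay below that median under both. The change of scale moved all genes by nearly the same amount, so these values had to be alike and are not separate support. DESeq2 called 0 of the 36 genes higher and 20 lower (29.3% and 30.7% of all genes), and limma-voom called 0 higher and 19 lower (34.3% and 36.2% of all genes). At an unadjusted p under 0.05, 1 gene, Fancm, had a positive log2 fold change, and 0 such genes passed the fold threshold as well (34.9% of all genes). A fall of 1 or more on the log2 scale was called for 14 genes (28.3% of all genes). The SG libraries lay entirely below the B-D libraries for 25 genes (41.3% of all genes) and entirely above for 4 (39.9% of all genes).

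**Figure D1:**
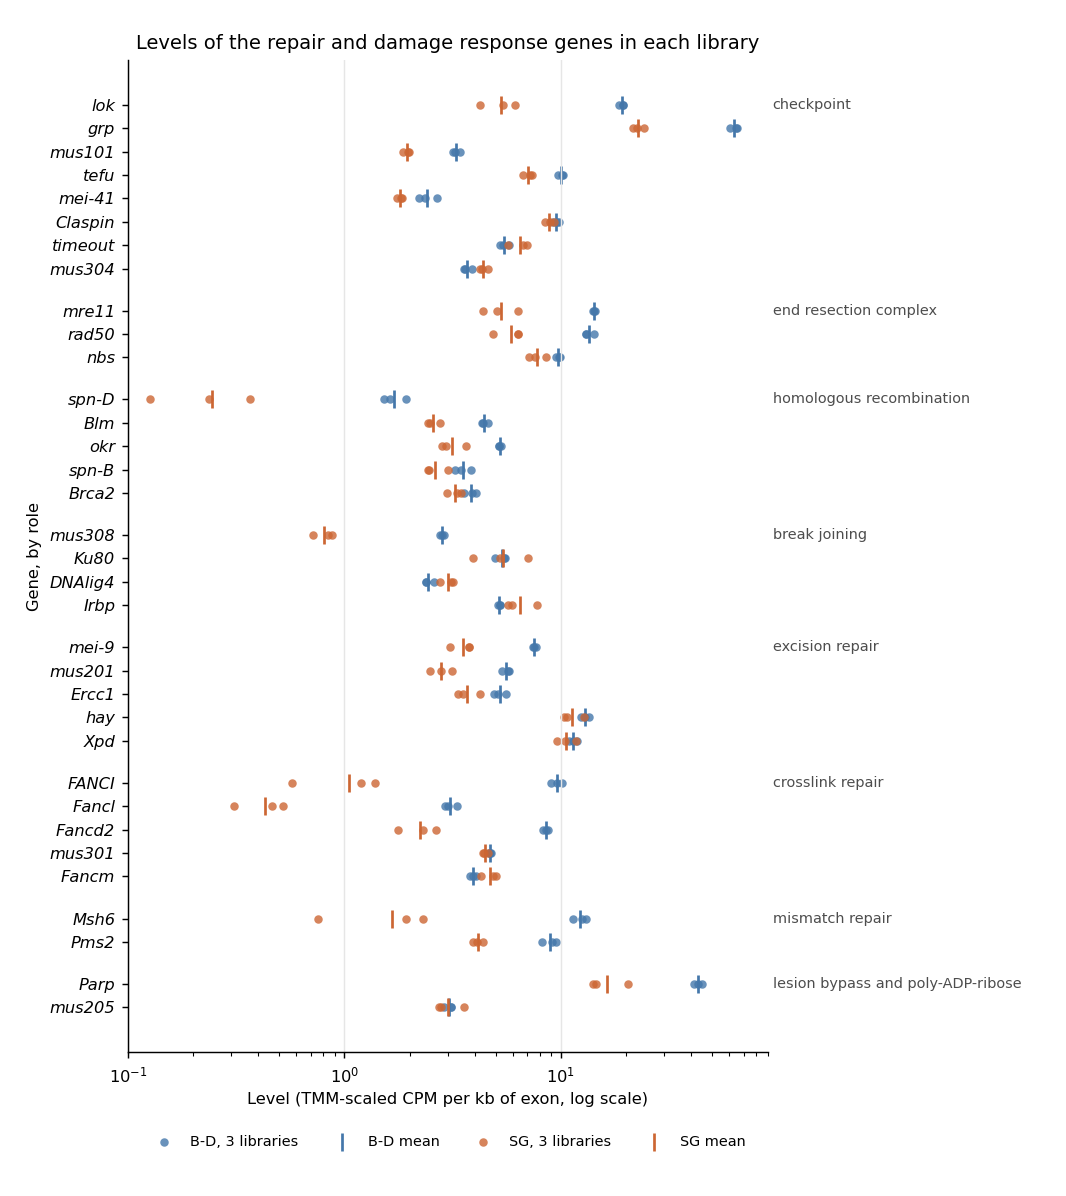
Level of each of 34 genes in the 6 libraries, as TMM-scaled CPM per kb of exon on a log axis, with the 3 B-D and the 3 SG libraries as points, their means as short vertical lines and the genes grouped by role. The SG points of FANCI, Fancl, spn-D and Msh6 lie far to the left of the B-D points, and for 6 genes the points of the tissues overlap.

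Both Msh6 and Pms2 of mismatch repair were lower in SG. Msh6 (FBgn0036486), whose protein takes part in recognizing mismatched bases, was at 53.02, 51.1 and 46.6 CPM in B-D and at 9.38, 3.07 and 7.86 CPM in SG. Its highest SG library was far under its lowest B-D library. The log2 fold change was -2.89 ± 0.41 (SE, adjusted p = 0.001002). The gene lies on 3L from 15154233 to 15158562, minus strand, in Release 6 coordinates. Pms2, whose protein works in the MutL complex that acts after mismatch recognition, was at 27.6, 24.7 and 28.9 CPM in B-D and at 13.2, 12.5 and 11.9 CPM in SG. That fall of 1.11 ± 0.10 on the log2 scale (adjusted p = 0.0001848) was smaller than that of Msh6, and again every SG library was below every B-D library.

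Crosslink repair divided into 3 genes that fell and 2 that were not called. In this pathway, best known from human Fanconi anemia, the FANCI and Fancd2 proteins form a clamp on DNA and the ligase Fancl attaches ubiquitin to it. FANCI (FBgn0033354) had the largest fall of the 36 genes, from 43.5, 40.9 and 45.5 CPM in B-D to 5.39, 2.58 and 6.24 CPM in SG. All SG libraries were well under the B-D range and replicate 2 was the lowest. The log2 fold change was -3.19 ± 0.33 (adjusted p = 0.0003012). Fancd2 was at 39.3, 39.8 and 38.0 CPM in B-D and at 10.6, 8.13 and 12.1 CPM in SG, a log2 fold change of -1.92 ± 0.16 (adjusted p = 0.0001368). Fancl (FBgn0037781) was a gene of low level in both tissues, with 4.15, 3.63 and 3.76 CPM in B-D and 0.647, 0.387 and 0.580 CPM in SG, which rest on 24, 12 and 20 counts. Its tissues were nonetheless far apart, and it fell by 2.83 ± 0.24 on the log2 scale (adjusted p = 0.000158).

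The translocase gene Fancm, whose protein remodels stalled forks, was at 18.4, 18.0 and 19.1 CPM in B-D and at 22.9, 20.2 and 23.6 CPM in SG. Its SG libraries were all above its B-D libraries with TMM, yet the difference of 0.26 ± 0.09 on the log2 scale (adjusted p = 0.04163) was under the fold threshold, and with library size alone the gene was lower, at -0.83. The helicase gene mus301 had SG values just under its B-D values, with a log2 fold change of -0.07 ± 0.08 (adjusted p = 0.4552). The scaffold gene mus312, the fly counterpart of human SLX4, was listed with 0 counts in all 6 libraries. It lies on 3L from 7329132 to 7333471, plus strand, and 100% of its exon length is shared on the same strand with CG42307, which was also at 0 in all 6 libraries, so that its level cannot be read from these counts.

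Among the checkpoint genes the kinases grp and lok fell most. The Chk1 gene grp had the highest level per length of all 36 genes in both tissues, at 196, 198 and 185 CPM in B-D and at 73.7, 65.7 and 68.6 CPM in SG. The tissues were well separated with little spread in either, and the log2 fold change was -1.48 ± 0.08 (adjusted p = 4.771e-05). The Chk2 gene lok, whose protein acts below ATM and upon p53, was at 47.3, 45.1 and 47.4 CPM in B-D and at 15.0, 10.3 and 13.2 CPM in SG. It fell by 1.86 ± 0.15 on the log2 scale (adjusted p = 0.0001329). The gene mus101, the fly TopBP1, which activates ATR, was at 15.8, 16.6 and 15.5 CPM in B-D and at 9.57, 9.10 and 9.63 CPM in SG. That was a smaller but well separated fall of 0.76 ± 0.10 on the log2 scale (adjusted p = 0.0006206).

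The ATM gene tefu lay at the fold threshold. It was at 85.4, 81.9 and 86.4 CPM in B-D and at 60.9, 55.9 and 61.9 CPM in SG, and every SG library was lower. The log2 fold change was -0.51 ± 0.08 (adjusted p = 0.001316), and the call was lost without B-D replicate 1, 2 or 3 or without SG replicate 2, where the value was -0.46, -0.49, -0.46 and -0.44. The ATR gene mei-41 passed the p threshold but not the fold threshold, with 18.6, 21.1 and 17.5 CPM in B-D against 14.5, 14.6 and 13.8 CPM in SG and a log2 fold change of -0.42 ± 0.10 (adjusted p = 0.01045). It was called with upper quartile scaling, at -0.61, and with library size alone, at -1.52. The gene of its binding partner ATRIP, mus304, was at 10.9, 10.001 and 10.2 CPM in B-D and at 12.2, 12.97 and 11.9 CPM in SG. Here the SG libraries lay above the B-D libraries with TMM, at 0.25 ± 0.10 (adjusted p = 0.06682), and with library size alone the sign turned, to -0.85. Claspin, the adaptor that brings Chk1 to ATR, overlapped between tissues, at 43.9 to 46.8 CPM in B-D and 40.1 to 44.2 CPM in SG (log2 fold change -0.11 ± 0.08, adjusted p = 0.2517). The Timeless relative timeout also overlapped and was at 0.25 ± 0.11 (adjusted p = 0.0775), or at -0.85 with library size alone.

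Within the complex that trims and holds broken ends, 2 of 3 genes fell. The nuclease gene mre11 was at 29.0, 28.2 and 28.6 CPM in B-D and at 12.8, 8.81 and 10.2 CPM in SG, a log2 fold change of -1.43 ± 0.15 (adjusted p = 0.000323). The gene of the ATPase that clamps the ends, rad50, was at 52.9, 53.4 and 57.7 CPM in B-D and at 25.9, 19.8 and 25.8 CPM in SG, a log2 fold change of -1.20 ± 0.13 (adjusted p = 0.0003356). Both had every SG library under every B-D library. The third subunit gene, nbs, whose protein recruits ATM, was at 24.6, 25.4 and 25.7 CPM in B-D and at 22.2, 18.4 and 19.8 CPM in SG, and its log2 fold change of -0.32 ± 0.10 (adjusted p = 0.02359) was under the fold threshold. It was called with upper quartile scaling, at -0.51, and with library size alone, at -1.42.

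Among the homologous recombination genes, Brca2, whose protein acts on resected ends, was at 11.8 to 13.3 CPM in B-D and 9.84 to 11.3 CPM in SG (log2 fold change -0.24 ± 0.11, adjusted p = 0.0918). The gene spn-D (FBgn0003482), known from meiotic recombination in the ovary, was at 1.66, 1.97 and 1.57 CPM in B-D and at 0.243, 0.129 and 0.377 CPM in SG, which rest on 9, 4 and 13 counts. It fell by 2.77 ± 0.37 on the log2 scale (adjusted p = 0.0008045), with no overlap. The gene spn-B, likewise known from the ovary, was at 5.32, 4.80 and 4.46 CPM in B-D and at 4.18, 3.36 and 3.39 CPM in SG, with a log2 fold change of -0.42 ± 0.17 (adjusted p = 0.06331), and it was called without SG replicate 1, at -0.52, with upper quartile scaling, at -0.61, and with library size alone, at -1.52. Of its exon length, 14.2% lies opposite NK7.1. The Rad54 gene okr, whose protein helps a broken strand invade its template, was at 15.3, 14.8 and 14.9 CPM in B-D and at 10.5, 8.10 and 8.47 CPM in SG. It fell by 0.73 ± 0.13 on the log2 scale (adjusted p = 0.00277), and 16.7% of its exon length lies opposite Bem46. The helicase gene Blm, whose protein dissolves joined molecules, was at 22.1, 20.8 and 21.0 CPM in B-D and at 13.3, 11.97 and 11.7 CPM in SG, a log2 fold change of -0.79 ± 0.09 (adjusted p = 0.0005163). Both okr and Blm had well separated tissues.

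**Figure D2:**
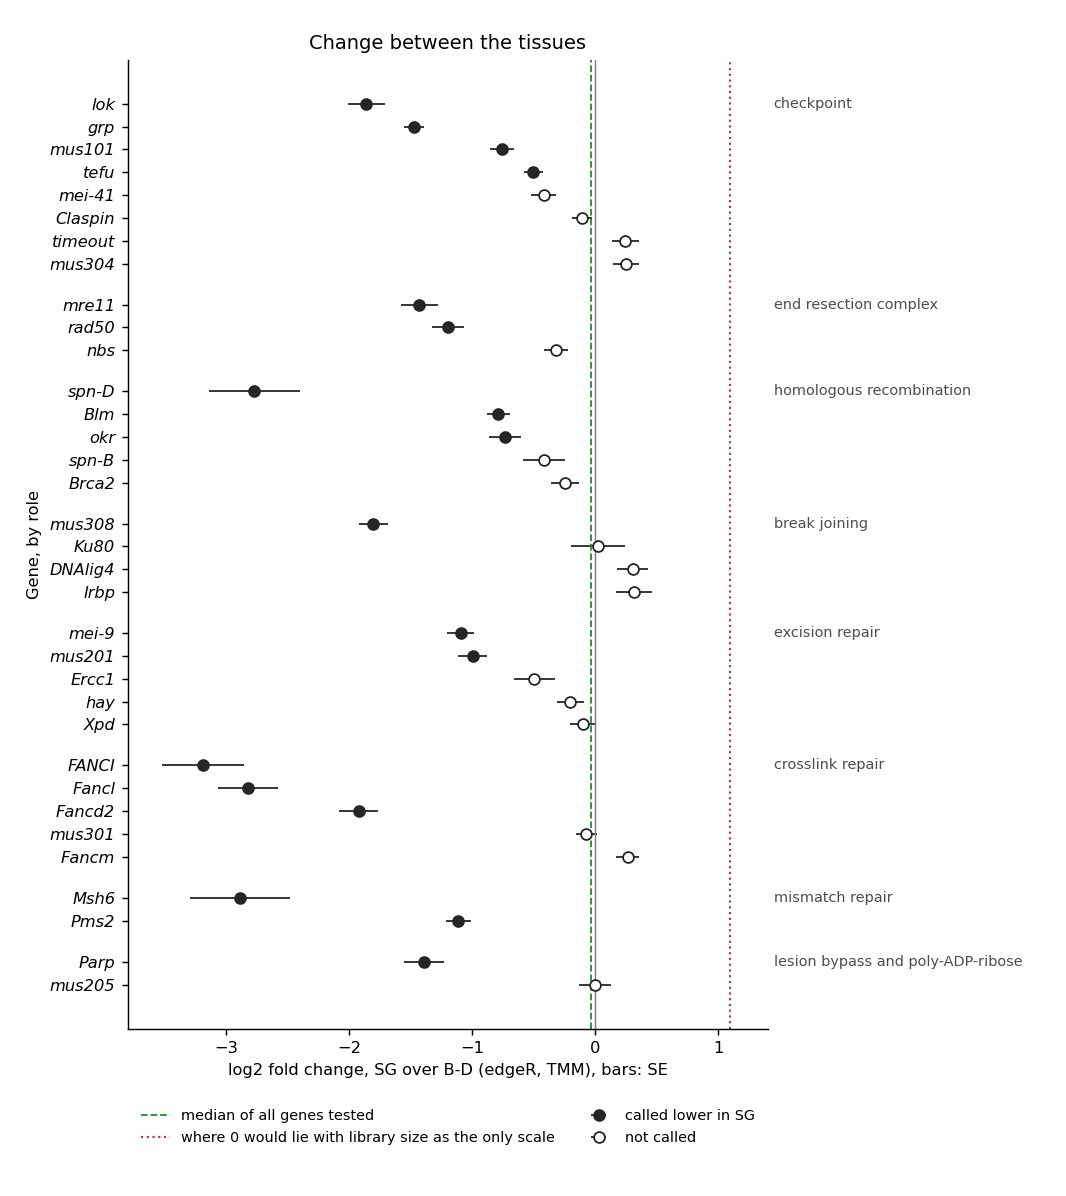
The log2 fold change of SG over B-D for each of 34 genes with its SE as a bar, grouped by role, with filled points for the 18 genes called lower and open points for the 16 not called. The dashed line is the median of all genes (-0.03), and the dotted line shows where 0 would lie if library size alone set the scale, to the right of every gene.

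End joining presented an uneven picture. For the Ku70 gene Irbp, whose protein encircles broken ends, the values were 11.3, 11.2 and 11.01 CPM in B-D and 16.7, 12.8 and 12.2 CPM in SG. The SG libraries were above the B-D libraries with TMM, mostly through replicate 1, at 0.31 ± 0.15 (adjusted p = 0.09333), and the sign turned to -0.79 with library size alone. Its partner gene Ku80 was at 12.8, 11.4 and 12.6 CPM in B-D and at 16.2, 12.1 and 9.08 CPM in SG. These SG libraries reached both above and below B-D, and the log2 fold change of 0.02 ± 0.22 (adjusted p = 0.9264) had a sign that depended on the setting. DNAlig4, the ligase of this route, was at 7.20, 7.86 and 7.21 CPM in B-D and at 9.65, 8.39 and 9.43 CPM in SG (0.30 ± 0.12, adjusted p = 0.06497), or -0.79 with library size alone. In contrast mus308, the polymerase theta gene that acts when ends are joined through short repeats, was at 18.2, 17.7 and 18.5 CPM in B-D and at 4.58, 5.39 and 5.60 CPM in SG. It fell by 1.80 ± 0.12 on the log2 scale (adjusted p = 7.346e-05), with little spread in either tissue, and replicate 2 was not its lowest SG library.

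For excision repair, mus201 and mei-9 fell and the other genes were not called. The XPG gene mus201 was at 21.1, 22.8 and 22.4 CPM in B-D and at 12.4, 9.81 and 11.02 CPM in SG, a log2 fold change of -0.997 ± 0.12 (adjusted p = 0.0004732). The XPF gene mei-9 was at 26.8, 27.1 and 27.7 CPM in B-D and at 13.6, 11.1 and 13.5 CPM in SG, a log2 fold change of -1.09 ± 0.11 (adjusted p = 0.0002699), and 10.6% of its exon length is shared with a noncoding gene on the same strand. Neither of these genes overlapped between tissues. Ercc1, whose protein forms the nuclease with XPF, was at 5.31, 4.67 and 4.87 CPM in B-D and at 4.02, 3.16 and 3.34 CPM in SG. Its log2 fold change of -0.50 ± 0.17 (adjusted p = 0.03269) lay just under the fold threshold before rounding. It was called at -0.50 with the replicate number as a block and at -0.60 without SG replicate 1. DESeq2, each other scaling and each other filter also called it. It was not called with limma-voom, nor without B-D replicate 1, 2 or 3, nor without SG replicate 2 or 3. With SG replicate 2 alone it was at -0.62. The helicase genes Xpd and hay, which also serve transcription, overlapped between tissues. Xpd was at 30.6 to 33.2 CPM in B-D and 26.8 to 32.7 CPM in SG (log2 fold change -0.10 ± 0.10, adjusted p = 0.3792). The XPB gene hay was at 32.7 to 35.5 CPM in B-D and 27.2 to 33.6 CPM in SG (-0.20 ± 0.11, adjusted p = 0.133).

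Parp, which marks breaks with poly-ADP-ribose, was second to grp in level per length. It was at 128, 133 and 140 CPM in B-D and at 43.7, 45.1 and 63.8 CPM in SG, with the tissues well apart and SG replicate 3 the highest of its group. The log2 fold change was -1.39 ± 0.16 (adjusted p = 0.000485). The lesion bypass gene mus205, the catalytic subunit of polymerase zeta, was at 21.0, 19.4 and 20.9 CPM in B-D and at 24.0, 18.5 and 18.8 CPM in SG. These ranges overlapped, and its log2 fold change rounded to 0.00 (-0.0016 ± 0.13, adjusted p = 0.9906), or -1.10 with library size alone.

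Per kb of exon, the order of the genes changed between tissues. In B-D grp was first at 63.2 ± 2.32 CPM per kb (SD, n = 3), ahead of Parp at 43.0 ± 1.78 and lok at 19.1 ± 0.54 CPM per kb, and none of these overlapped with the next gene. From mre11 at 14.2 down to Msh6 at 12.3 CPM per kb, neighbors overlapped. The lowest gene was spn-D at 1.69 CPM per kb, and it did not overlap with mei-41 at 2.42 CPM per kb. In SG grp at 22.7 and Parp at 16.4 CPM per kb were again first and did not overlap, and hay at 11.3 and Xpd at 10.6 CPM per kb followed. The Chk2 gene lok took rank 13 in SG against 3 in B-D, at 5.26 CPM per kb, and did not separate from its neighbors mre11 and Fancm. At the low end of SG stood mus308 at 0.808, Fancl at 0.431 and spn-D at 0.243 CPM per kb, where mus308 did not overlap with Fancl.

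The ratio of 2 genes within a library does not depend on the scaling, so 10 pairs of partners were compared as log2 ratios of level per kb. For 8 pairs the tissues did not overlap, and the share among other gene pairs was not computed. For single genes, the SG libraries lay entirely below B-D for 41.3% of all genes tested and entirely above for 39.9%. The count of 8 is therefore not read as particular to these pairs. The ratios are given as a description and were not tested, and a two-sided exact permutation test of 3 libraries against 3 could not go below p = 0.1. Fancd2 over FANCI was -0.17, -0.06 and -0.28 in B-D and 0.95, 1.63 and 0.94 in SG, so that Fancd2 was the higher of the partners in every SG library and slightly the lower in every B-D library. For mre11 over nbs the ratio was 0.61, 0.52 and 0.52 in B-D and -0.43, -0.69 and -0.59 in SG, a change of sign between the tissues. Chk2 against ATM, lok over tefu, likewise changed sign, from 0.94, 0.93 and 0.92 in B-D to -0.23, -0.65 and -0.44 in SG.

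The gene grp exceeded mei-41 in both tissues, by a mean log2 ratio of 4.71 ± 0.10 (SD, n = 3) in B-D and 3.65 ± 0.09 in SG. ATR against its partner, mei-41 over mus304, went from -0.61 ± 0.17 in B-D to -1.28 ± 0.04 in SG. The nuclease pair mei-9 over Ercc1 went from 0.53 ± 0.11 to -0.07 ± 0.14, without overlap. Blm over mus308 went from 0.65 ± 0.05 to 1.66 ± 0.25, again without overlap. The smallest shift of these was that of Irbp over Ku80, from -0.03 ± 0.10 to 0.28 ± 0.22. The pairs mre11 over rad50 and Xpd over hay overlapped between the tissues.

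**Figure D3:**
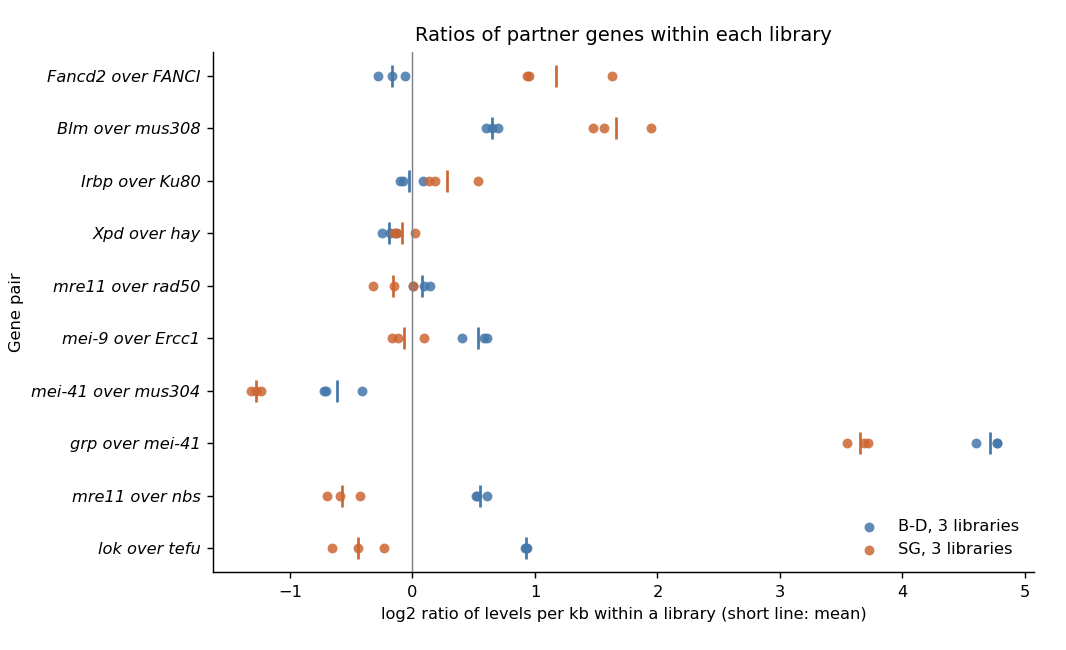
The log2 ratio of level per kb of 10 gene pairs in each library, with 3 B-D and 3 SG points and short vertical lines for the means. Fancd2 over FANCI lies near 0 in B-D and at 0.94 to 1.63 in SG, and mre11 over nbs and lok over tefu lie above 0 in B-D and below 0 in SG.

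The SG libraries were not alike in the genes with the largest falls. As a percentage of the B-D mean, FANCI was at 12.4, 5.96 and 14.4 in SG replicates 1, 2 and 3, and Msh6 was at 18.7, 6.11 and 15.7. For spn-D the values were 13.99, 7.45 and 21.8, and for Fancl 16.8, 10.1 and 15.1. Replicate 2 was the lowest SG library for each of these 4 genes, for 11 of the 14 genes that were lower by 1 or more on the log2 scale, and for 24 of all 36 (42.0% of all genes tested). The share among all genes that fell by 1 or more was not computed, so the 11 of 14 is not read as particular to the repair genes.

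Brain and disc markers were also lowest in SG replicate 2. The median neuron marker in SG replicates 1, 2 and 3 was at 4.62, 0.967 and 7.22 percent of its B-D mean, the median neuroblast marker at 7.17, 1.93 and 9.43 percent and the median disc marker at 15.4, 10.9 and 14.2 percent. Mitosis genes had medians of 14.7, 10.01 and 17.8 percent, and replication genes of 75.7, 63.6 and 59.9 percent. The part of the brain and disc transcripts in the SG values of the genes was not tested. With SG replicate 2 alone against B-D, 20 genes were called lower (35.2% of all genes) and 0 higher (33.4% of all genes), and the falls were larger, at -4.05 for FANCI, -4.01 for Msh6, -3.71 for spn-D and -3.28 for Fancl. That fit holds 1 SG library, so its calls rest on the spread between B-D libraries and carry none between SG libraries. Replicate 2 was the lowest SG library for each of these genes, so the larger falls follow from its choice. Without SG replicate 2 the falls of these genes were -2.87, -2.52, -2.46 and -2.62. Among the 17 genes not called, the median level was 103, 92.1 and 89.4 percent of the B-D mean in the 3 SG libraries.

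**Figure D4:**
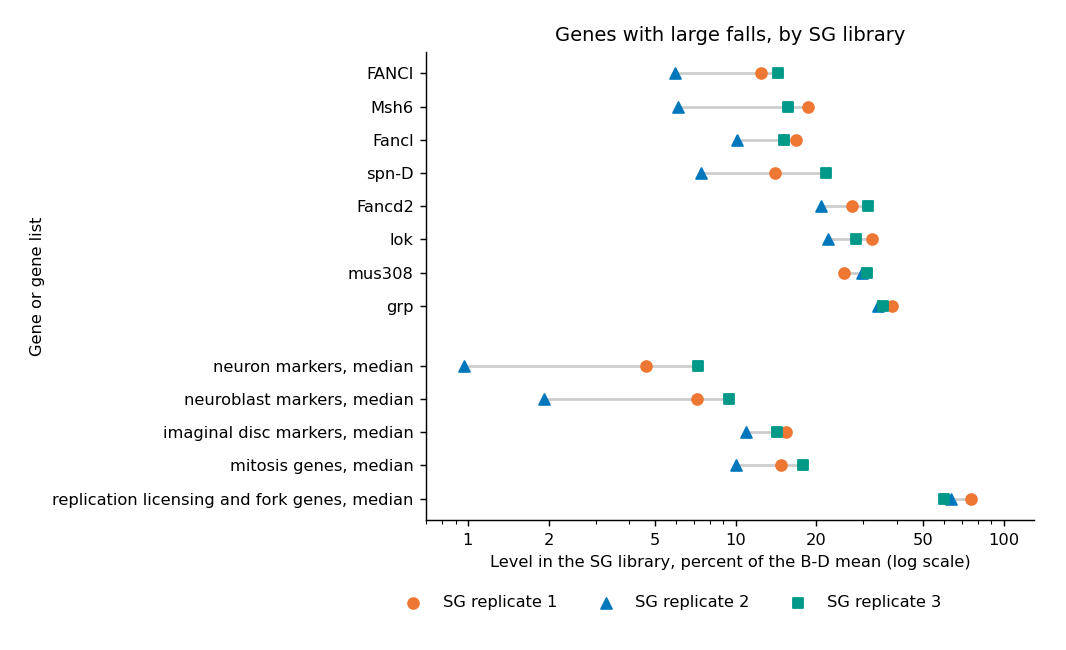
Level in SG replicates 1, 2 and 3 as a percentage of the B-D mean, on a log axis, for 8 genes with large falls and for the medians of neuron, neuroblast and disc markers and of mitosis and replication genes. Replicate 2 is the lowest library for FANCI (5.96), Msh6 (6.11) and the neuron markers (0.967) and is not the lowest for mus308.

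Genes of the same pathways outside the list were counted for context. Of 74 tested, 38 were called lower and 8 higher with TMM, and 68 lower and 0 higher with library size alone, with a median log2 fold change of -0.54 under TMM. Other recombination and nuclease genes had 19 of 27 lower and 1 higher (median -0.83), among them SMC5, a subunit of a complex that holds damaged chromatids, at -2.16 ± 0.16, and slx1, the nuclease subunit that binds the mus312 protein, at -1.67 ± 0.16. The 1 that was higher, WRNexo, the exonuclease related to human WRN, was at 0.51 ± 0.11 with TMM and at -0.58 with library size alone.

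Of 21 other excision and direct repair genes 7 were lower and 4 higher (median -0.24). These shares of 33.3% and 19.0% were under the 35.3% and 34.5% of all genes. Xpc, which recognizes bulky lesions and carries the synonym mus210, was at 152, 164 and 154 CPM in B-D and at 51.8, 40.4 and 43.0 CPM in SG, a clear separation with a log2 fold change of -1.80 ± 0.12 (adjusted p = 6.732e-05). Rrp1, the apurinic endonuclease gene of base excision repair, fell by 2.49 ± 0.18 on the log2 scale. DNAlig3, which seals nicks, was higher with TMM at 1.33 ± 0.08 and at 0.23 with library size alone, while the oxidized guanine glycosylase gene Ogg1 was at 0.77 ± 0.10 with TMM and -0.33 with library size alone. Tfb5 and Rad1 were at 0 in all libraries, with their whole exon length shared on the same strand with other genes at 0.

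Of 14 other checkpoint and chromatin response genes 4 were lower and 2 higher (median -0.32). These shares of 28.6% and 14.3% were under the 35.3% and 34.5% of all genes. The transcription factor genes of the response were the higher ones, p53 at 6.61 to 7.55 CPM in B-D and 14.1 to 18.9 CPM in SG (log2 fold change 1.22 ± 0.14, adjusted p = 0.0004911) and Xrp1 at 398 to 420 CPM in B-D and 1148 to 1215 CPM in SG (1.52 ± 0.09, adjusted p = 5.081e-05). With library size alone p53 was at 0.12 and Xrp1 at 0.42, and 38.0% of the p53 exon length lies opposite another gene. The MDC1-like gene mu2 was lower at -1.17 ± 0.09, and the phosphatase subunit gene wrd at -0.82 ± 0.09. Among p53-linked apoptosis genes 7 of 8 were lower and 0 higher (median -1.33), including the caspase genes Dcp-1 at -2.16 ± 0.17 and Drice at -0.91 ± 0.08. In a list of 4 genes drawn up for other polymerases of damaged templates, DNApol-eta was lower at -1.43 ± 0.13. The gene CG3448 of that list, not shown here to encode a polymerase, was at 0.79 ± 0.18 with TMM and -0.31 with library size alone. Of their exon length, 23.4% of CG3448 and 13.7% of Dcp-1 lie opposite another gene.

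Replication and mitosis genes were set beside the list as 2 comparison groups. Of 37 replication licensing and fork genes 20 were lower and 3 were higher (35.3% and 34.5% of all genes). Their median log2 fold change was -0.57, close in value to the -0.62 of the repair and damage response genes. The lower part of the lists differed, with a first quartile of -0.85 for replication genes and -1.44 for the repair and damage response genes. The third quartiles were -0.09 and -0.10. Top2, which untangles DNA, was at -1.39 ± 0.10 and the helicase subunit gene Mcm2 at -1.16 ± 0.10. The licensing factor gene Cdc6 was at 1.19 ± 0.14 with TMM and 0.10 with library size alone, and Psf2, of the GINS complex, at 0.72 ± 0.13 and -0.38. Of 39 mitosis genes 36 were lower and 1 was higher, and their median was -2.83. The repair list had a median of -0.62. Its genes FANCI, Msh6, Fancl and spn-D, named for their large falls, were at -3.19 to -2.77, which does not compare with the median of a list. Cap-H2, of the condensin complex, was at -1.93 ± 0.11 and the anillin gene scra at -1.68 ± 0.10, and the 1 that was higher, pbl, which organizes the cytokinetic ring, was at 1.83 ± 0.09 with TMM and 0.73 with library size alone.

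**Figure D5:**
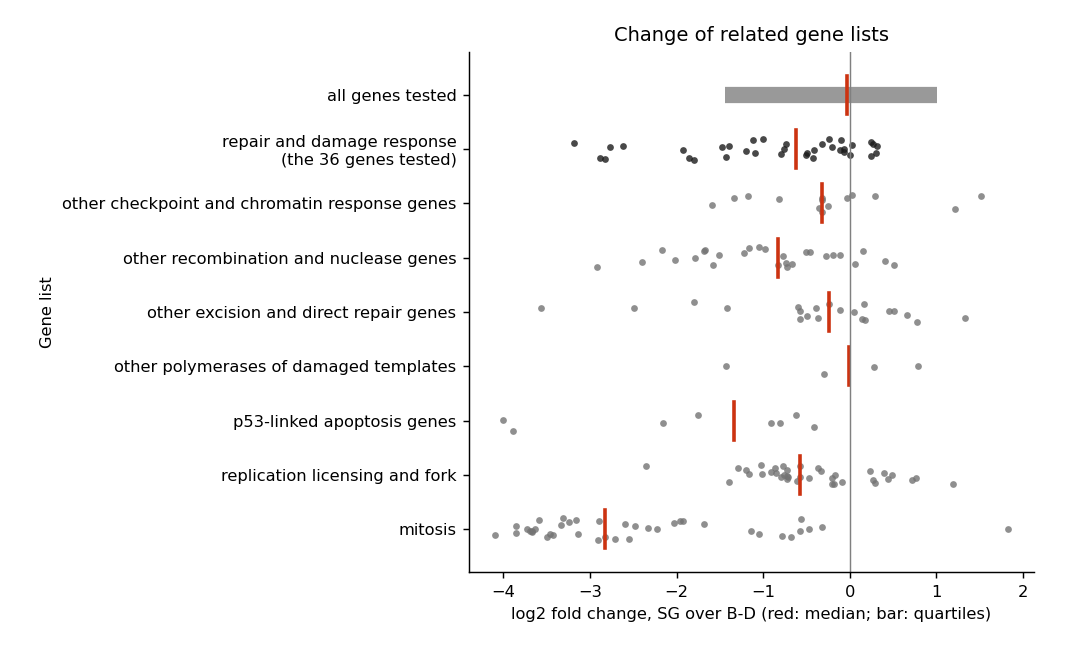
The log2 fold change of SG over B-D for the genes of each list as points, with red lines for the medians and a grey bar for the quartiles of all genes tested. The median of the 36 repair and damage response genes (-0.62) lies near that of replication genes (-0.57), far from that of mitosis genes (-2.83), and the highest of the 36 points is at 0.31.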

How the data were processed

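Total RNA of SG and of B-D, with 3 libraries each, was made into poly-A, strand-specific libraries and read as single ends. According to the study's methods and the submitters' processing notes, the authors checked reads with FastQC 0.11.5, aligned them with STAR 2.6.1a to the Release 6 fly genome and counted exon reads with featureCounts. How strand and reads with several positions were treated is not given in the sources used here. The deposited values are whole-number counts per gene with no normalization. The deposited fold changes and p-values of the authors' own comparison (DESeq2 1.14.1) were not used.

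Here the counts of 17493 genes were filtered with filterByExpr, scaled by TMM and fitted with edgeR 4.0.16 (quasi-likelihood test, tissue as the only term, R 4.3.3), with Benjamini-Hochberg adjustment over the 11369 genes tested. Calls needed an adjusted p of at most 0.05 and a log2 fold change of 0.5 or more in size. Alternatives were other scalings and filters, DESeq2 1.42.0, limma-voom 3.58.1, the replicate number as a block, and leaving out each library. Levels between genes are CPM per kb of exon, and 0.5 counts were added in ratios of 2 genes. The edgeR steps were run on simulated counts in which few genes changed, up and down alike. That run does not test the scaling between tissues as different as these. Groups and replicate numbers came from the sample titles. The rule was to name all genes listed, and from each related list the 2 called genes with the smallest p in each direction. The genes and lists were chosen with earlier results of these data known. The values of 2 of the genes tested are not reported here. Sequences and promoter letters were not analysed here. Every row of the table names a gene, and 6 symbols that had become dates were read by their identifier.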

Additional observations from a re-analysis of the deposited data

How the results depend on the processing

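Of the alternatives run, another scale changed the most calls. When library size alone set the scale, 1588 of all genes were called higher and 7111 lower in SG, 36 of the genes described were called lower, and their median log2 fold change was -1.72. Under that scale 6 genes with a positive log2 fold change became negative, mus304 (-0.85), timeout (-0.85), Irbp (-0.79), Ku80 (-1.08), DNAlig4 (-0.79) and Fancm (-0.83). Upper quartile scaling gave a median of -0.81 and 23 genes called lower (39.6% of all genes), with Ercc1, mei-41, nbs and spn-B added. With adjusted p alone, 1 of the genes described was called higher (37.9% of all genes). With the fold threshold raised to 1 on the log2 scale, 27 of 74 other pathway genes were called, higher or lower. The same threshold called 8 of 37 replication genes and 6034 of all 11369 genes tested. The share over all genes was the largest, so these counts are not read as a change particular to the lists.

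Several values near 0 changed sign. Ku80 was at -0.17 with upper quartile scaling, -0.0068 with DESeq2, -0.0096 with limma-voom, -0.022 with no filter, -0.013 with the replicate block, -0.0017 with SG replicate 2 alone and ran from -0.21 (without SG replicate 1) to 0.23 (without SG replicate 3) over the 6 fits that each left out 1 library. Leaving out 1 library gave mus205 values from -0.13 (without SG replicate 1) to 0.087, with 0.051, 0.048, 0.087 and 0.076 without B-D replicate 1, B-D replicate 3, SG replicate 2 and SG replicate 3. The number called lower ran from 18 to 21 when 1 library was left out (32.2% to 35.5% of all genes). Over single genes, 467 of the values recomputed kept their direction and their side of the threshold, 17 changed sign, 22 passed the threshold anew and 4 lost it.

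Deviations of same-numbered libraries from their group means correlated at 0.33, 0.077 and 0.22, so the numbers were not taken to pair the samples. B-D replicates 1 and 3 correlated best with the SG library of their own number and B-D replicate 2 did not. The fit with the replicate number as a block called 20 genes lower (35.1% of all genes) against 19 without it, with Ercc1 added at -0.50 and no other call of these genes changed. The lowest count was 4, for spn-D in a SG library, and spn-D was called lower under every alternative run.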
